A study of Mus musculus with 18 samples.

Results

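The 10 genes described here encode transcription regulators that T cells use when they choose a helper fate: the HMG-box factors Sox4, Tcf7, Lef1, Tox and Tox2, the chromatin organizer Satb1, the inhibitors Id2 and Id3, and the E proteins Tcf3 and Tcf12. They were chosen by name, with earlier results of these data known, so counts of members that passed describe the set and are no independent support. They were matched by Entrez identifier, 10 rows of the 27179 identifiers listed, and all 10 were among the 11735 genes tested. Their positions below are those of RefSeq on GRCm38.p6. RNA was read from naive mouse CD4 T cells cultured for 3.5 days on plate-bound antibodies to CD3 and CD28, and then sorted by flow cytometry with stains that the labels leave unnamed. All mice carried Maf fl/fl alleles, and the labels divide them into CD4Cre+ and CD4Cre-. CD4Cre is a Cre recombinase driven by Cd4 sequences and removes floxed DNA in T cells from the thymus on. Each genotype label was cultured under the treatments Tfh_5, Tfh_1 and Tfh_A, whose composition the labels leave unstated. By its title, the series concerns how TGF-β, acting through c-Maf, directs cells to a Tfh or a Th17 fate. There were 3 libraries for each of the 6 groups, with replicate numbers 1, 3 and 6 for the label Cre-positive and 2, 4 and 5 for the label Cre-negative. Values of a group are given below in that order. No label says that the libraries came from separate mice, and p-values therefore reflect only the variation among these libraries, part or all of which may be technical.

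The level of Maf, the floxed gene, went against the genotype labels. Maf had 397, 331 and 319 CPM (counts scaled to a common library size) in Tfh_5 libraries labelled Cre-positive, and 0 CPM in the 3 labelled Cre-negative. It had 207, 260.1 and 196 CPM against 0, 0 and 2.03 CPM in Tfh_1, and 22.8, 8.07 and 5.03 CPM against 0.270, 0 and 0 CPM in Tfh_A. Every direction between genotypes given below is therefore one between labels, and the libraries labelled Cre-positive are those that held nearly all of the Maf RNA. The labels do not say which part of Maf the floxed allele removes. Library totals were 6424874 to 9236153 counts, and 10242 to 12673 identifiers per library were above 0, with the lowest number in the Cre-negative Tfh_5 replicate 5. The 10 T cell markers examined, Cd3e, Cd4 and Trac among them, were above 0 in all 18 libraries. Their summed level was 3712 to 4361 CPM in Cre-positive Tfh_5 libraries and 2972 to 3423 CPM in Cre-negative ones, and 2444 to 3063 CPM against 2356 to 2417 CPM in Tfh_A. In the Tfh_5 groups the summed level of 8 B cell markers was 0 to 1.82 CPM with the label Cre-positive and 2.71 to 11.0 CPM with the label Cre-negative. In Tfh_1 the B cell markers summed to 0 to 0.163 CPM against 15.8 to 25.1 CPM, and the T cell markers to 4231 to 4682 CPM against 2809 to 3296 CPM. In Tfh_A the B cell markers summed to 7.12 to 31.4 CPM against 11.2 to 23.8 CPM. Pax5 was at 0 in all 18 libraries, and the part of other cells in the results below was not tested.

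HMG-box proteins bend DNA through a shared domain. TCF-1 (from Tcf7) and LEF-1 (from Lef1) hold naive and memory programs and act upstream of Bcl6 in T follicular helper (Tfh) cells, the cells that help B cells in germinal centres. TOX proteins are tied to CD4 T cell development, Tfh cells and exhausted cells, and Sox4 is known as a gene that TGF-β induces in T cells. E proteins, here E2A (from Tcf3) and HEB (from Tcf12), bind E-box sites as dimers. Id proteins lack the basic region that touches DNA, pair with E proteins and keep them off it, and in mouse T cells Id3 is known from naive and Tfh cells and Id2 from Th1 effector cells. In spite of their symbols, Tcf3 and Tcf12 are helix-loop-helix genes and not relatives of Tcf7.

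Sox4, Id2 and Id3 were the members whose difference between genotype labels was not the same in Tfh_5 as in Tfh_A by edgeR's test. Their promoters are shown for that reason. Sequences run from 250 bases before to 50 bases after the transcript start, 5′ to 3′ on the strand of the gene, from RefSeq's table of the build GRCm38.p6. They lie on the minus strand at chr13:28953650-28953949 for Sox4, on the minus strand at chr12:25096043-25096342 for Id2, and on the plus strand at chr4:136143572-136143871 for Id3. Capitals mark matches to 6 short motifs searched on both strands: the E-boxes CAGCTG and CACCTG, the TCF/LEF site CTTTGAT, the SOX site AACAAAG, the SMAD site CAGACA and the Maf site TGCTGAC.
Sox4: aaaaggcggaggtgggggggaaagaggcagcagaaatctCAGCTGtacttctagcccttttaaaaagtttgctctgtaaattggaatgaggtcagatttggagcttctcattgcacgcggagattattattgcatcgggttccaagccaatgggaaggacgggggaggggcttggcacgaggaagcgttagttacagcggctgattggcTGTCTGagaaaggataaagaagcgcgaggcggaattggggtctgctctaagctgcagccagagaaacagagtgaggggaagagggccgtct
Id2: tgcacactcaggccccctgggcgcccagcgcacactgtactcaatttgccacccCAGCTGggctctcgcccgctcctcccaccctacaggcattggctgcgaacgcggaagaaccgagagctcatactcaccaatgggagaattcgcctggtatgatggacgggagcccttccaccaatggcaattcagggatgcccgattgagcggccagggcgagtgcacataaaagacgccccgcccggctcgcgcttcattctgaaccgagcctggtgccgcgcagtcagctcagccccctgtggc
Id3: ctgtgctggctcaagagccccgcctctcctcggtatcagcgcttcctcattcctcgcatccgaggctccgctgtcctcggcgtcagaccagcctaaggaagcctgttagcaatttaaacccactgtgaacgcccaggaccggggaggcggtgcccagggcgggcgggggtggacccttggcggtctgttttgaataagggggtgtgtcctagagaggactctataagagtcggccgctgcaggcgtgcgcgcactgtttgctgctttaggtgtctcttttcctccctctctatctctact
The E-box CAGCTG lay at bases -211 to -206 from the start of Sox4 and at -196 to -191 from that of Id2. CAGACA lay on the opposite strand of the Sox4 promoter, where it reads TGTCTG, at -41 to -36. No marked match overlapped another, and these letters of the Id3 window held none of the 6. Over 32851 promoters of the same length in the table, CAGCTG occurred in 16.3%, CACCTG in 20.2%, CTTTGAT in 3.73%, AACAAAG in 5.85%, CAGACA in 21.0% and TGCTGAC in 4.67%. The table held 23 promoters for 9 of the 10 genes, of which 6 had CAGCTG and 1, of Lef1, had TGCTGAC.

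Between the genotype labels, 4 of the 10 members passed edgeR's quasi-likelihood test in Tfh_5, 1 in Tfh_1 and 0 in Tfh_A. In Tfh_5, Sox4, Tox and Id3 were higher and Id2 lower in libraries labelled Cre-positive, where 3.24% of all tested genes passed (1.19% higher and 2.05% lower). In Tfh_1, of the 10 members, Sox4 alone passed and was higher, against 0.852% of all genes (0.511% higher and 0.341% lower). In Tfh_A edgeR called 0 members and 0.0% of all genes, 0 members and 606 genes (5.16%) had an unadjusted p under 0.05, and DESeq2 called 0 members and 40 genes. The median log2 fold change of the 10 members in Tfh_5 was 0.69, against 0.00 over all genes tested. The test of the difference between the genotype effects in Tfh_5 and Tfh_A passed for Sox4, Id3 and Id2, where 1.19% of all genes passed (0.332% higher and 0.861% lower).

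Sox4 (Entrez 20677, chromosome 13, 28948919 to 28953699, minus strand) was high in Tfh_5 libraries labelled Cre-positive. It had 464, 511 and 471 CPM there, against 10.4, 28.1 and 14.7 CPM in Tfh_5 libraries labelled Cre-negative. In Tfh_1 it had 27.7, 19.3 and 30.6 CPM with the label Cre-positive and 3.96, 0 and 1.89 CPM with the label Cre-negative. In Tfh_A the groups overlapped, with 3.29, 12.3 and 9.94 CPM and 8.91, 11.5 and 8.99 CPM. The genotype groups stood apart in Tfh_5 and Tfh_1, and the Tfh_5 libraries labelled Cre-positive lay above all 15 other libraries. The log2 fold change was 4.77 ± 0.63 (SE, 95% interval 3.42 to 6.11, edgeR adjusted p = 0.000355) in Tfh_5 and 3.74 ± 0.67 (2.31 to 5.17, adjusted p = 0.0115) in Tfh_1. In Tfh_A it was -0.18 ± 0.58 (-1.40 to 1.05, adjusted p = 1). The effect in Tfh_5 exceeded that in Tfh_A by 4.94 ± 0.83 (adjusted p = 0.00608), while the effects in Tfh_5 and Tfh_1 differed by 1.03 ± 0.88, with an interval of -0.83 to 2.89 (adjusted p = 0.892). The call in Tfh_1 was lost without Cre-positive replicate 1 or 6 or Cre-negative replicate 5, with adjusted p of 0.0542 to 0.111, and in a fit of the 6 Tfh_1 libraries alone (adjusted p = 0.0672). In bulk RNA, fewer cells with a transcript and less of it per cell cannot be told apart, here or for any gene below. A lincRNA gene, Gm26735, overlaps Sox4 exons on the opposite strand in GENCODE and is not among the identifiers listed. No source used here gives the strand setting of the counting, so reads from it cannot be told apart from those of Sox4. The same holds for Gm43352 at Lef1, Gm11802 at Tox and Gm6934 at Satb1. Gm36931, also not among the identifiers listed, overlaps Satb1 exons on the same strand. Its reads could not be told apart from those of Satb1 under any strand setting.

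**Figure D1:**
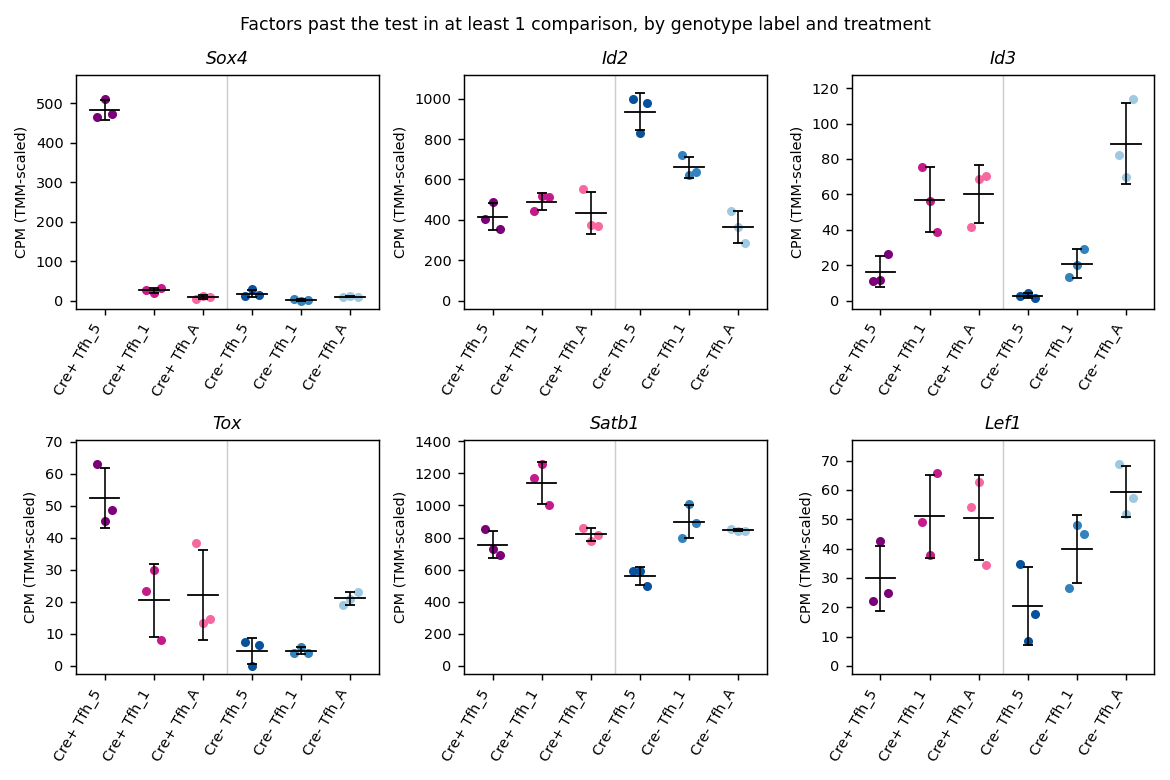
CPM (counts scaled to a common library size with TMM factors) of the 6 factors past the test in at least 1 comparison. Points are libraries, horizontal lines are group means and bars are SD (n = 3), with libraries labelled Cre-positive left of the grey line. The Sox4 points of Cre-positive Tfh_5 libraries (464, 471 and 511 CPM) stand far above the other 15, and Id2 is highest and Id3 lowest in Cre-negative Tfh_5 libraries.

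Tox (Entrez 252838, chromosome 4, 6686353 to 6991557, minus strand), the founding member of the TOX family, was also high with the label Cre-positive in Tfh_5. It had 63.0, 45.3 and 48.7 CPM there, against 7.39, 0 and 6.52 CPM in libraries labelled Cre-negative. In Tfh_1 it had 23.2, 30.1 and 7.98 CPM against 4.13, 5.94 and 3.92 CPM, and in Tfh_A 38.4, 13.3 and 14.5 CPM against 19.0, 20.9 and 23.2 CPM. The genotype groups stood apart in Tfh_5 and Tfh_1 and overlapped in Tfh_A. The log2 fold change was 3.49 ± 0.77 (adjusted p = 0.00629) in Tfh_5, 2.13 ± 0.73 (adjusted p = 0.237) in Tfh_1 and 0.06 ± 0.69 (adjusted p = 1) in Tfh_A. The effect in Tfh_5 minus that in Tfh_A was 3.43 ± 1.01 and did not pass edgeR's test (adjusted p = 0.107). Of 18 alternatives run, 2 called that difference, DESeq2 and edgeR with no count filter. A fit of the 6 Tfh_5 libraries alone lost the Tfh_5 call (adjusted p = 0.105). Tox2 (chromosome 2, 163203058 to 163324172), which is known to promote Tfh differentiation, was near the detection limit. Its highest library held 7.23 CPM, 9 of 18 libraries were at 0, and the 3 Cre-positive Tfh_A libraries held 0 counts in all, which allows up to 3 counts over the group. No comparison of Tox2 passed the test. The lowest unadjusted p was 0.0205, in Tfh_5 against Tfh_A with the label Cre-positive (adjusted p = 0.179), where 0, 31 and 56 counts stood against 0 counts in each Tfh_A library.

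Tcf7 and Lef1 did not pass the test between genotype labels under any treatment. Tcf7 (chromosome 11, 52246527 to 52283383) was low in every group, at 0 to 8.45 CPM with the label Cre-positive and 0 to 2.5 CPM with the label Cre-negative, and 5 of 18 libraries were at 0. The Tcf7 groups overlapped in Tfh_5 and Tfh_A and stood apart in Tfh_1, at 8.45, 4.43 and 3.42 CPM against 0, 1.98 and 0.270 CPM (adjusted p = 0.773). Its 95% interval in Tfh_5, -2.19 to 7.04 on the log2 scale, leaves large differences in either direction possible. Lef1 (Entrez 16842, chromosome 3, 131110297 to 131224357, plus strand) had 22.2, 42.6 and 24.9 CPM in Cre-positive Tfh_5 libraries and 34.9, 8.55 and 17.7 CPM in Cre-negative ones. It had 49.0, 38.0 and 65.9 CPM against 26.4, 48.1 and 45.0 CPM in Tfh_1, and 54.1, 62.8 and 34.5 CPM against 68.8, 51.9 and 57.3 CPM in Tfh_A. The genotype groups overlapped under all 3 treatments, and the intervals of the log2 fold change were -0.28 to 1.39 in Tfh_5, -0.47 to 1.18 in Tfh_1 and -1.06 to 0.59 in Tfh_A.

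Satb1 (Entrez 20230, chromosome 17, 51736187 to 51833290, minus strand) encodes a DNA-binding protein that organizes chromatin loops in T cells and has no HMG box. It had 852, 727 and 691 CPM in Cre-positive Tfh_5 libraries and 594, 589 and 495 CPM in Cre-negative ones. In Tfh_1 it had 1170.3, 1258.5 and 1001 CPM against 799.6, 1008 and 892 CPM, and in Tfh_A 862, 781 and 818 CPM against 851, 839 and 843 CPM. The groups stood apart in Tfh_5, yet the log2 fold change of 0.44 ± 0.16 did not pass edgeR's test over all genes (unadjusted p = 0.011, adjusted p = 0.167). DESeq2 called it there, making 5 members.

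The Id genes moved in opposite directions between the labels in Tfh_5. Id2 (Entrez 15902, chromosome 12, 25093799 to 25096092, minus strand) had 403, 489 and 356 CPM in Cre-positive Tfh_5 libraries, against 1000.2, 831 and 978 CPM in Cre-negative ones. In Tfh_1 it had 444, 517 and 511 CPM against 720.1, 623 and 638 CPM, and in Tfh_A 554, 376 and 368 CPM against 445, 364 and 284 CPM. The Cre-negative Tfh_5 libraries were the highest of all 18, and the genotype groups overlapped in Tfh_A alone. Id2 was lower with the label Cre-positive by a log2 fold change of -1.17 ± 0.19 (adjusted p = 0.000188) in Tfh_5. The values of -0.43 ± 0.19 in Tfh_1 (adjusted p = 0.435) and 0.25 ± 0.19 in Tfh_A (adjusted p = 1) did not pass. The effect in Tfh_5 minus that in Tfh_A was -1.42 ± 0.27 (adjusted p = 0.00252).

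Id3 (Entrez 15903, chromosome 4, 136143822 to 136145392, plus strand) had 10.9, 11.7 and 26.5 CPM in Cre-positive Tfh_5 libraries, against 2.46, 4.13 and 1.67 CPM in Cre-negative ones. In Tfh_1 it had 75.6, 56.2 and 38.9 CPM against 13.2, 19.8 and 29.3 CPM, and in Tfh_A 41.5, 68.7 and 70.3 CPM against 81.9, 69.8 and 114 CPM. All Cre-positive libraries lay above all Cre-negative ones in Tfh_5 and in Tfh_1, and the groups overlapped in Tfh_A. The log2 fold change was 2.56 ± 0.45 (adjusted p = 0.000467) in Tfh_5, where the call was lost in a fit of these 6 libraries alone (adjusted p = 0.27). It was 1.45 ± 0.41 (adjusted p = 0.0931) in Tfh_1 and -0.56 ± 0.40 (adjusted p = 1) in Tfh_A. Of 12 alternatives run, 2 called Id3 in Tfh_1, DESeq2 and edgeR with no count filter. The effect in Tfh_5 exceeded that in Tfh_A by 3.11 ± 0.60 (adjusted p = 0.00316). The differences between treatments in the genotype effects of Sox4, Id2 and Id3 passed in all 18 alternatives run, with adjusted p of up to 0.0499, 0.0191 and 0.0192.

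**Figure D2:**
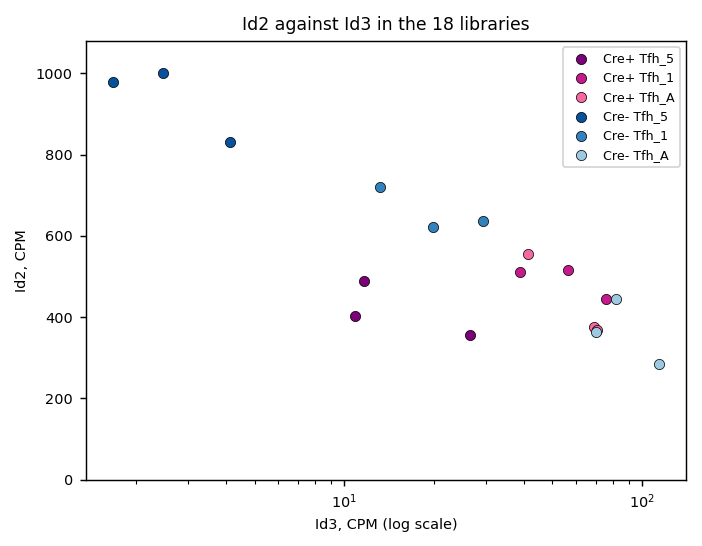
Id2 (CPM, linear axis from 0) against Id3 (CPM, log axis) in the 18 libraries, coloured by group. Cre-positive Tfh_5 libraries (Id3 of 10.9 to 26.5 CPM, Id2 of 356 to 489 CPM) lie low and towards the middle, and Cre-negative Tfh_5 libraries (Id3 of 1.67 to 4.13 CPM, Id2 of 831 to 1000.2 CPM) at the upper left, while both Tfh_A groups lie at the lower right.

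The E proteins, which Id proteins bind, passed the test in none of the 12 comparisons. Tcf3 (chromosome 10, 80409541 to 80433976) had 16, 16.4 and 16.5 CPM in Cre-positive Tfh_5 libraries and 26.7, 15.8 and 32.1 CPM in Cre-negative ones. Tcf12 (chromosome 9, 71844252 to 72111893) had 45.6, 53.5 and 39.1 CPM there and 13.4, 23.9 and 41.1 CPM in Cre-negative ones. For both genes the genotype groups overlapped in Tfh_5. Over all 18 libraries Tcf3 ran between 11.0 and 39.2 CPM and Tcf12 between 7.16 and 53.5 CPM. The interval of the genotype difference in Tfh_5 was -1.62 to 0.40 for Tcf3 and -0.26 to 1.89 for Tcf12 on the log2 scale, so that a difference as large as that of Id2 lies within both intervals.

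**Figure D3:**
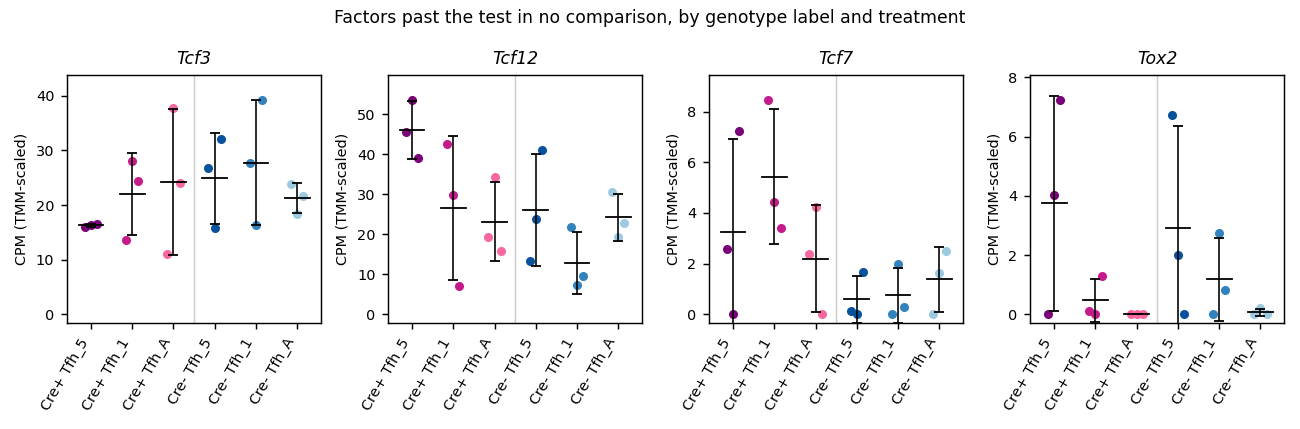
CPM of the 4 factors past the test in no comparison, drawn as for the others (points are libraries, lines are means, bars are SD, n = 3). Tcf7 stays at or below 8.45 CPM and Tox2 at or below 7.23 CPM, with several libraries at 0, and between genotype labels the Tcf3 and Tcf12 groups overlap under each treatment.

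**Figure D4:**
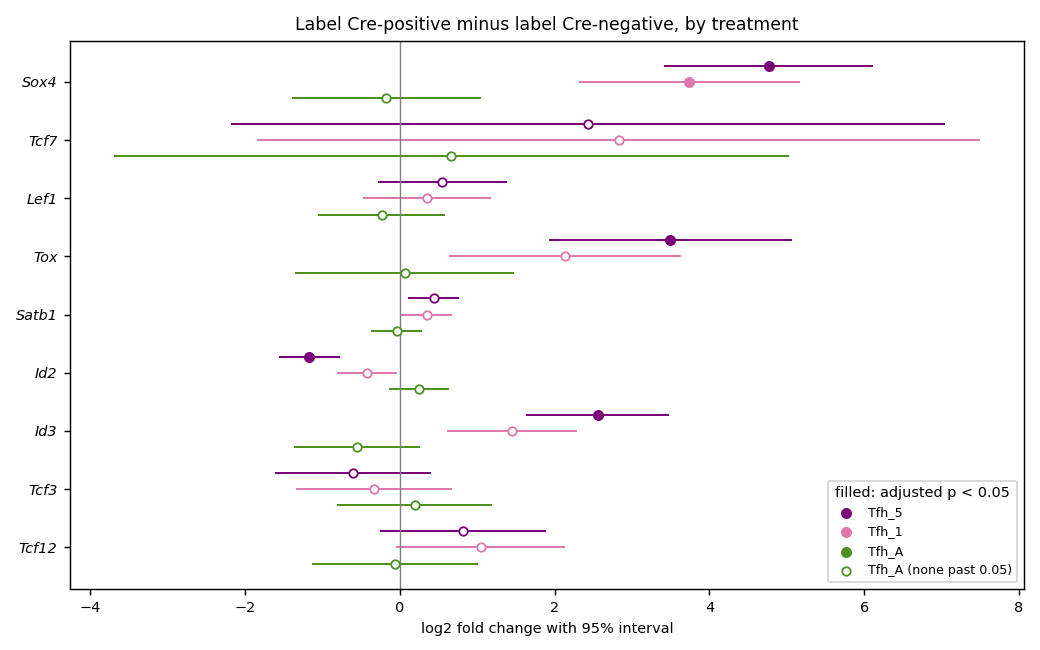
Log2 fold change of the label Cre-positive minus Cre-negative with its 95% interval, for each treatment. Filled points passed edgeR's test (adjusted p under 0.05). Sox4, Tox, Id2 and Id3 are filled in Tfh_5, Sox4 alone in Tfh_1 and none in Tfh_A, and Tox2 is left out because its counts are at or near 0 in several groups.

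Across treatments, Sox4 rose in Tfh_5 with the label Cre-positive, Id2 rose with the label Cre-negative, and Id3 fell with both. With the label Cre-positive, 2 members passed in Tfh_5 against Tfh_A, where 5.39% of all genes did (2.39% higher and 3.0% lower). Sox4 was higher by 5.80 ± 0.67 (adjusted p = 3.3e-05) and Id3 lower, at -1.88 ± 0.42 (adjusted p = 0.00327). In Tfh_1 against Tfh_A edgeR called 0 members, against 2.57% of all genes, and 2 members, Sox4 (1.58 ± 0.58) and Satb1 (0.48 ± 0.16), had an unadjusted p under 0.05, as did 14.0% of all genes. DESeq2 called these 2. In Tfh_5 against Tfh_1, 3 members passed, where 1.76% of all genes did (0.435% higher and 1.32% lower), with Sox4 higher (4.22 ± 0.62, adjusted p = 0.00125) and Satb1 and Id3 lower. Satb1 (-0.60 ± 0.16, adjusted p = 0.0452) lost its call without Tfh_5 replicate 3 or 6 or Tfh_1 replicate 1 or 3 (adjusted p of 0.152 to 0.199). Id3 (-1.80 ± 0.42, adjusted p = 0.0132) lost its call without Tfh_5 replicate 1 or 3 or Tfh_1 replicate 1 (0.0811 to 0.0974). In a fit of the 6 libraries compared alone, both calls were lost (0.0993 for Satb1 and 0.0863 for Id3).

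With the label Cre-negative, 4 members passed in Tfh_5 against Tfh_A, where 5.08% of all genes did (3.17% higher and 1.91% lower). Id2 rose by 1.36 ± 0.19 on the log2 scale (adjusted p = 7.56e-06), and Id3 fell by 4.99 (± 0.49, adjusted p = 4.2e-09). Lef1 (-1.54 ± 0.42, adjusted p = 0.0199) and Satb1 (-0.59 ± 0.16, adjusted p = 0.0204) were also lower in Tfh_5. Lef1 lost its call without Tfh_5 replicate 4 or 5 or Tfh_A replicate 2 or 5 (adjusted p of 0.0605 to 0.135). Satb1 lost its call without Tfh_5 replicate 5 or any Tfh_A library (0.0668 to 0.136). Both calls were also lost in a fit of these 6 libraries alone (0.0965 for Lef1 and 0.0818 for Satb1). In Tfh_1 against Tfh_A, 2 members passed, where 2.23% of all genes did (1.5% higher and 0.733% lower). Id2 was higher (0.86 ± 0.19, adjusted p = 0.00741), a call lost without Tfh_1 replicate 2 or Tfh_A replicate 5 (0.0577 and 0.0947), and Id3 was lower (-2.09 ± 0.42, adjusted p = 0.00253). Sox4 had a log2 fold change of -2.34 ± 0.66 in this comparison, with groups that stood apart, and did not pass edgeR's test (adjusted p = 0.0927), while DESeq2 called it. Tox had a log2 fold change of -2.18 ± 0.73 in Tfh_5 against Tfh_A (edgeR adjusted p = 0.0911). In Tfh_1 against Tfh_A it was -2.17 ± 0.73 (adjusted p = 0.142). Neither passed, though the groups stood apart in both. DESeq2 called the first, the groups alone the second, and edgeR with no count filter called both. With the label Cre-positive, Tox in Tfh_5 against Tfh_A was 1.25 ± 0.70 (adjusted p = 0.353), which no alternative called. Both Cre-negative comparisons with Tfh_A use the same Tfh_A libraries. In Tfh_5 against Tfh_1, 3 members passed, where 0.554% of all genes did (0.273% higher and 0.281% lower). Id3 was lower (-2.90 ± 0.46, adjusted p = 0.000388). Sox4 (3.19 ± 0.67, adjusted p = 0.0437) and Satb1 (-0.69 ± 0.16, adjusted p = 0.0361) also passed. Sox4 lost its call without any Tfh_5 library or Tfh_1 replicate 5 (0.0513 to 0.246), and Satb1 without Tfh_5 replicate 4 or 5 or any Tfh_1 library (0.0533 to 0.188). In a fit of the 6 libraries compared alone, all 3 calls were lost, with adjusted p of 0.12 for Id3, 0.322 for Sox4 and 0.136 for Satb1.

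**Figure D5:**
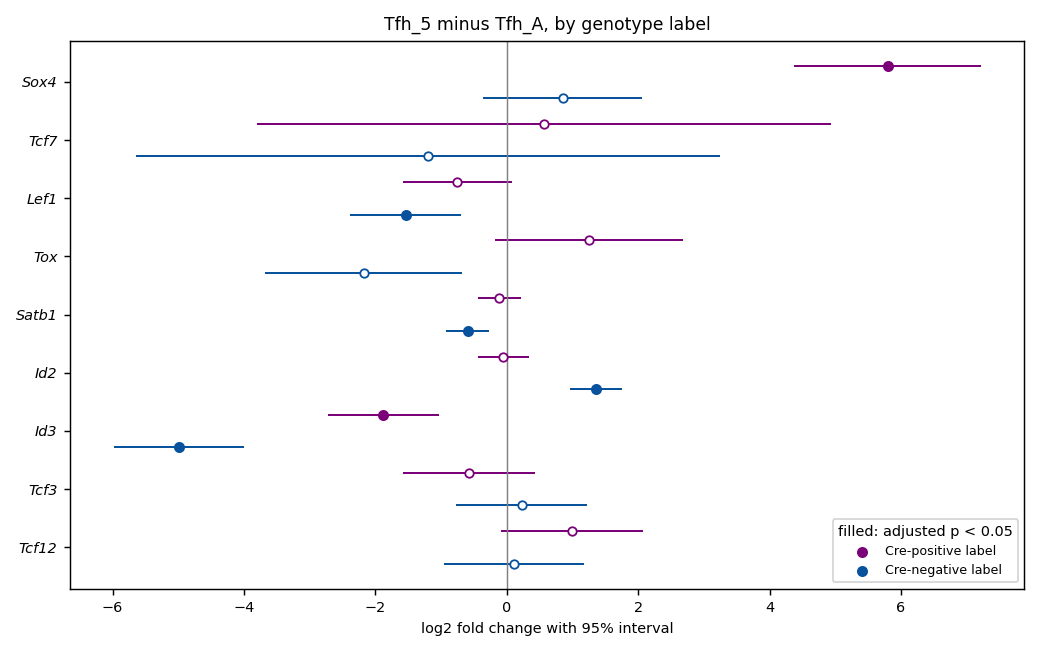
Log2 fold change of Tfh_5 minus Tfh_A with its 95% interval, for libraries labelled Cre-positive and Cre-negative. Filled points passed edgeR's test. Sox4 is filled with the label Cre-positive (5.80), Id2, Lef1 and Satb1 with the label Cre-negative, and Id3 with both (-1.88 and -4.99), and Tox2 is left out because its Tfh_A libraries are at or near 0.

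Composition differed along with these contrasts. The 2 most abundant identifiers, which carry no gene name, took 36.8% to 43.0% of the counts in Cre-negative Tfh_5 libraries and 19.7% to 33.7% in Cre-negative Tfh_A libraries. Scaling by plain totals in place of TMM factors shifted the median of all genes by -0.55 (log2) in Tfh_5 against Tfh_A with the label Cre-negative, by -0.43 in Tfh_1 against Tfh_A, and by -0.12 in Tfh_5 against Tfh_1. Shifts were 0.12 and -0.35 in the genotype effects in Tfh_5 and Tfh_A, -0.17 in Tfh_1 against Tfh_A with the label Cre-positive, and 0.20 to 0.46 in the differences between genotype effects. Every member called in a genotype or treatment comparison kept its direction under plain scaling. The log2 ratio of mean CPM in Cre-negative Tfh_5 against Tfh_A became 0.83 for Id2, in place of 1.36, and -1.14 for Satb1, in place of -0.59. The part of composition in these results was not tested.

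Ordered by mean level over the 6 groups, Sox4 ran from 482 ± 25.3 CPM (SD, n = 3) in Cre-positive Tfh_5 through 25.9 ± 5.87 in Cre-positive Tfh_1, 17.7 ± 9.22 in Cre-negative Tfh_5, 9.78 ± 1.45 in Cre-negative Tfh_A and 8.51 ± 4.67 in Cre-positive Tfh_A to 1.95 ± 1.98 in Cre-negative Tfh_1. In this order the libraries of neighbouring groups overlapped in every step after the first. Id2 ran from 936 ± 92.1 CPM in Cre-negative Tfh_5 through 660.1 ± 52.5 in Cre-negative Tfh_1 and 490.5 ± 40.6 in Cre-positive Tfh_1, without overlap, to 433 ± 105, 416 ± 67.3 and 364 ± 80.5 CPM in Cre-positive Tfh_A, Cre-positive Tfh_5 and Cre-negative Tfh_A, which overlapped with their neighbours. Id3 averaged 88.6 ± 22.8 CPM in Cre-negative Tfh_A, 60.1 ± 16.2 in Cre-positive Tfh_A and 56.9 ± 18.3 in Cre-positive Tfh_1, all overlapping, and then 20.8 ± 8.10 in Cre-negative Tfh_1, 16.3 ± 8.78 in Cre-positive Tfh_5 and 2.76 ± 1.26 in Cre-negative Tfh_5. The Cre-negative Tfh_5 libraries stood apart from the rest at the low end of Id3. For Tox, Cre-positive Tfh_5 (52.3 ± 9.39 CPM) stood above Cre-positive Tfh_A (22.1 ± 14.1), Cre-negative Tfh_A (21.0 ± 2.08) and Cre-positive Tfh_1 (20.4 ± 11.3), which overlapped, and these above Cre-negative Tfh_1 (4.66 ± 1.11) and Tfh_5 (4.64 ± 4.04).

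Genes tied to these factors were described as lists. The lists were chosen with earlier results of these data known, so their counts and medians describe them and are no independent support. Of 20 SOX, TCF/LEF, TOX and SATB relatives, only 4 had enough counts to be tested, and 0 passed between genotype labels in Tfh_5 by edgeR, at an unadjusted p under 0.05 or by DESeq2. Sox5, another SOX gene, was lower in Cre-positive Tfh_5 (0.973 ± 1.07 CPM) than in Cre-positive Tfh_A (58.5 ± 21.7 CPM), a log2 fold change of -5.87 ± 1.13 (adjusted p = 0.00164). Sox5 also passed as lower in Cre-positive Tfh_1 (4.31 ± 5.59 CPM) than in Cre-positive Tfh_A. With the label Cre-negative it averaged 3.84 ± 4.65 CPM in Tfh_5 and 37.5 ± 19.3 CPM in Tfh_A, and did not pass. Of 24 partners of β-catenin, the coactivator that TCF and LEF proteins recruit, 18 were tested. Between genotype labels in Tfh_5, 0 passed edgeR's test (median 0.28 against 0.00 over all genes). In that comparison 2 had an unadjusted p under 0.05, as did 14.9% of all genes, and DESeq2 called 0. In Tfh_5 against Tfh_A with the label Cre-positive, Ctnnbip1, an inhibitor of β-catenin, was higher (2.39 ± 0.51, adjusted p = 0.002). Tle3, a corepressor of TCF proteins, was lower (-1.37 ± 0.38, adjusted p = 0.0262), a call lost without Tfh_5 or Tfh_A replicate 3 or 6 (adjusted p of up to 0.164). With the label Cre-negative Tle3 also passed as lower (22.9 ± 10.2 CPM against 62.2 ± 18.6 CPM), while Ctnnbip1 did not pass. Among 13 other helix-loop-helix genes, 9 were tested and 0 passed edgeR's test between genotype labels in Tfh_5. Of the 9, 1 had an unadjusted p under 0.05, as did 14.9% of all genes, and DESeq2 called 0. Their median in Tfh_5 was -0.15, or 0.00 with genes of at most 3 counts in a group set to their bound.

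Of 18 genes tied to TCF-1 and LEF-1, 16 were tested. In the Tfh_5 genotype comparison 3 passed as higher and 2 as lower with the label Cre-positive, where 1.19% of all tested genes passed as higher and 2.05% as lower. The median was 0.73, against 0.00 over all genes, which also holds beside the medians of the other lists in this comparison. Cd27, a costimulatory receptor of naive and memory cells, averaged 88.3 ± 20.8 CPM with the label Cre-positive and 22.8 ± 15.5 CPM with the label Cre-negative (1.95 ± 0.42, adjusted p = 0.00447). Icos, the costimulatory receptor that Tfh cells need, averaged 115.7 ± 21.2 CPM against 54.0 ± 7.46 CPM (1.1 ± 0.24, adjusted p = 0.00562). Il7r, the IL-7 receptor α chain, averaged 71 ± 10.5 CPM against 184 ± 76.8 CPM (-1.38 ± 0.32, adjusted p = 0.00878). The third higher gene was Myb and the other lower one Runx3, a factor of cytotoxic and Th1 cells (-0.94 ± 0.24, adjusted p = 0.018). Cd27, Icos, Il7r and Runx3 lost their calls in a fit of the 6 Tfh_5 libraries alone, with adjusted p from 0.103 for Cd27 up to 0.264 at most for Runx3 over its alternatives. Il7r also lost it without Cre-positive replicate 6 or Cre-negative replicate 2, and Runx3 without Cre-positive replicate 1 or Cre-negative replicate 2. In Tfh_A 0 passed edgeR's test, 1 had an unadjusted p under 0.05, as did 5.16% of all genes, and DESeq2 called 0.

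Of 18 genes tied to E proteins and Id factors, 13 were tested, and 2 passed, both higher in Tfh_5 libraries labelled Cre-positive (median 1.06, where 1.19% of all genes were higher). These were the immediate early gene Egr1 (41.3 ± 12.7 CPM against 9.80 ± 7.34 CPM, adjusted p = 0.0264) and the cytokine signalling inhibitor Socs1 (58.4 ± 33.4 CPM against 19.1 ± 11.4 CPM, adjusted p = 0.0277), whose groups overlapped. Egr1 lost its call without Cre-positive replicate 1 or Cre-negative replicate 5, and Socs1 without Cre-positive replicate 1 or 6 or Cre-negative replicate 2 or 5, with adjusted p over all alternatives of up to 0.249 and 0.274. Of 10 tested genes tied to TOX and NFAT, Nr4a1, an orphan nuclear receptor that follows antigen receptor signals, was the only one higher (26.1 ± 29.1 CPM against 2.04 ± 1.6 CPM, 3.66 ± 0.77, adjusted p = 0.00325), and the median was 0.36. That call was lost without Cre-positive replicate 6 and in a fit of the 6 libraries alone (adjusted p of up to 0.248). Of 14 tested Tfh regulators, 5 were higher and 2 lower in Tfh_5 with the label Cre-positive (median 0.95, with the same shares of 1.19% and 2.05% over all genes), with Maf, used above as the check of the labels, among the 5. Klf2, a factor that keeps T cells in circulation and is known to oppose Tfh differentiation, averaged 47.8 ± 14.7 CPM with the label Cre-positive and 0.0475 ± 0.0823 CPM with the label Cre-negative, where the 3 libraries held 1 count in all (adjusted p = 9.97e-08). Plekho1 averaged 231.5 ± 36.5 CPM against 12.6 ± 9.14 CPM (4.19 ± 0.57, adjusted p = 0.0002), and Il21r, the IL-21 receptor, 77.4 ± 27.9 CPM against 240.4 ± 18.8 CPM (-1.64 ± 0.25, adjusted p = 7.54e-05).

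Of 14 TGF-β pathway genes, set beside Sox4 as a known TGF-β target, most calls were between treatments. With the label Cre-positive, 5 of 14 were higher in Tfh_5 than in Tfh_A and none lower, with a median of 2.05 against -0.05 over all genes, of which 2.39% passed as higher and 3.0% as lower. With the label Cre-negative, 3 of 14 were higher and none lower (median 0.96 against -0.09), where 3.17% of all genes passed as higher and 1.91% as lower. Pmepa1, a TGF-β induced inhibitor of SMAD signalling, averaged 299 ± 30.9 CPM in Cre-positive Tfh_5 and 56.1 ± 17.0 CPM in Cre-positive Tfh_A, and 302.5 ± 18.2 CPM against 76.6 ± 6.41 CPM with the label Cre-negative. Skil, which encodes the SMAD corepressor SnoN, averaged 57.6 ± 16.2 CPM against 7.40 ± 2.32 CPM with the label Cre-positive, and 55.4 ± 0.530 CPM against 5.33 ± 3.60 CPM with the label Cre-negative. Both genes passed with either label. Between genotype labels in Tfh_5, 0 of 14 passed edgeR's test, and the median was 0.36. In that comparison 1 had an unadjusted p under 0.05, as did 14.9% of all genes, and DESeq2 called 1. In Tfh_1 Pmepa1 alone of the 14 passed, where 0.852% of all genes did (0.511% higher and 0.341% lower). It was lower with the label Cre-positive (-1.02 ± 0.23, adjusted p = 0.0208). That call was lost without Cre-positive replicate 1 or 6 or Cre-negative replicate 4 or 5 (adjusted p of up to 0.191).

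The genes whose profile over the 18 libraries was closest to that of Sox4 were Pdlim5, Angptl2, Thbs1, Tgif1, Tbc1d4 and Calcoco1. Likeness was the mean absolute difference of centred log2 CPM, and it was 1.17 to 1.29 for these 6, against a median of 2.06 over 7863 genes. A profile without change over the libraries would stand at 1.91 from Sox4. Only genes of at least 10 CPM in a group were compared, and Thbs1 met this only through Cre-positive Tfh_5 (10.2 CPM). It averaged 0 to 0.721 CPM in the other groups, near the floor, so its likeness to Sox4 is no support for a shared pattern. Pdlim5 averaged 116 CPM in Cre-positive Tfh_5 and 31.4 CPM in Cre-negative Tfh_5, with 3.93 to 16 CPM in the other 4 groups. Tgif1, a TGF-β pathway corepressor, averaged 56.6 CPM in Cre-positive Tfh_5 and 16.6 CPM in Cre-negative Tfh_5. Closest to Id2 were Cytip, Lgals1 and Eif2s2 (0.19 to 0.20, against a median of 0.72), and Lgals1, the gene for galectin-1, averaged 2074 CPM in Cre-positive Tfh_5 and 3452 CPM in Cre-negative Tfh_5. Closest to Id3 were Dglucy, Lrmp and Rere (0.76 to 0.78, median 1.51), and to Tox Syt11, Git1 and Anks3 (0.78 to 0.88, median 1.47). Closest to Satb1 were Cd5, Arf1 and Cd28 (0.14 to 0.19, median 0.61), and to Lef1 Sptbn1, Lbr and Arap2 (0.29 to 0.37, median 0.80). A profile without change would stand at 0.41 from Id2, 1.43 from Id3, 1.35 from Tox, 0.24 from Satb1 and 0.58 from Lef1.

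Between the genotype effects in Tfh_1 and Tfh_A, edgeR called 0 members, against 0.239% of all genes (0.102% higher and 0.136% lower), 4 members (Sox4, Tox, Id2 and Id3) had an unadjusted p under 0.05, as did 7.04% of all genes, and DESeq2 called 1, Sox4. The values were 3.91 ± 0.88 for Sox4 (adjusted p = 0.119), 2.01 ± 0.58 for Id3 (0.249), 2.07 ± 1.0 for Tox (0.709) and -0.68 ± 0.27 for Id2 (0.551). Between those in Tfh_5 and Tfh_1, edgeR and DESeq2 called 0 members, against 0.0597% of all genes in edgeR, and 1 member, Id2, had an unadjusted p under 0.05 (-0.74 ± 0.27, adjusted p = 0.427), as did 8.45% of all genes. Both differences for Sox4, Id2 and Id3 have the sign of the difference between Tfh_5 and Tfh_A. They share libraries with it and add up to it by construction, so the shared sign is no separate support.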

How the data were processed

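The deposited files hold expected counts per Entrez identifier, which the authors obtained using featureCounts 1.6.4 and STAR 2.7.2b (build mm10), per the submitters' processing notes, from Lexogen 3′ mRNA libraries of 50 ng RNA, per the labels' protocols. No normalization was applied to them. Because 11.7% to 18.1% of values in a library had fractions, they were rounded before testing. Of 27179 identifiers, 25275 were named through a RefSeq table of GRCm38.p6. CPM are rounded counts scaled by the library size times its TMM factor (0.830 to 1.389).

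All 18 libraries entered 1 fit in edgeR 4.0.16 (R 4.3.3) with TMM factors, filterByExpr and a robust quasi-likelihood fit, which kept 11735 genes. Each of the 12 comparisons had Benjamini-Hochberg adjustment over all genes, and 0.05 was the threshold (common biological coefficient of variation 0.814). SE is the size of the log2 fold change over the square root of F. Alternatives used DESeq2 1.42.0, RLE factors, no count filter, fractions cut off, a replicate block (limma 3.58.1 for genotype effects), the compared groups alone, and each library left out. The fit was tested on simulated data. Intervals of log2 fold changes come from this fit and include the variation among libraries, while the floor of 3 counts covers counting error only, since PCR copies are not independent molecules.

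The members and lists were chosen with earlier results of these data known. Genes named are the 10 members, Maf, up to 3 called genes per list and comparison by adjusted p (others are named only as counted), and the 3 genes most like each called member (6 for Sox4) among genes of at least 10 CPM in a group, on log2 CPM with a prior count of 2. Runx3 and Myb were named after their values were seen.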

Additional observations from a re-analysis of the deposited data

Results flagged for a closer look

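Sox4, Id2 and Id3 are listed because their difference between genotype labels was not the same in Tfh_5 as in Tfh_A, by a test of that difference in edgeR over all genes. The genotype effect in Tfh_5 minus that in Tfh_A was 4.94 on the log2 scale for Sox4 (adjusted p = 0.00608), -1.42 for Id2 (adjusted p = 0.00252) and 3.11 for Id3 (adjusted p = 0.00316). Plain library scaling shifted all genes in this comparison by 0.46. Maf RNA was found in libraries with the Cre-positive label, where it averaged 349 CPM in Tfh_5 and 12 CPM in Tfh_A, and its part in these differences was not tested.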

How the results depend on the processing

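Counts of genes passing the test depended on the tool and on the libraries fitted. For the genotype effect in Tfh_5, 380 genes passed, against 668 in DESeq2, 80 in a fit of only the groups compared, and 258 to 387 with a library left out. For the genotype effect in Tfh_1, 100 passed, against 281 in DESeq2, 168 with no count filter and 51 to 99 with a library left out. For the genotype effect in Tfh_A, 0 passed, against 40 in DESeq2, 1 with RLE factors, 23 with no count filter, 6 in voom with replicate block and 0 to 4 with a library left out. For Tfh_5 against Tfh_A with the Cre-positive label, 633 passed, against 1014 in DESeq2 and 448 to 543 with a library left out. For Tfh_1 against Tfh_A with the Cre-positive label, 302 passed, against 631 in DESeq2 and 170 to 282 with a library left out. For Tfh_5 against Tfh_1 with the Cre-positive label, 206 passed, against 437 in DESeq2, 314 with no count filter, 115 in the groups alone and 145 to 192 with a library left out. For Tfh_5 against Tfh_A with the Cre-negative label, 596 passed, against 912 in DESeq2 and 360 to 555 with a library left out. For Tfh_1 against Tfh_A with the Cre-negative label, 262 passed, against 476 in DESeq2, 566 in the groups alone and 129 to 202 with a library left out. For Tfh_5 against Tfh_1 with the Cre-negative label, 65 passed, against 261 in DESeq2, 232 with no count filter, 28 in the groups alone and 25 to 94 with a library left out. For the genotype effect in Tfh_5 minus that in Tfh_A, 140 passed, against 286 in DESeq2, 235 with no count filter, 88 in the groups alone and 81 to 164 with a library left out. For the genotype effect in Tfh_1 minus that in Tfh_A, 28 passed, against 61 in DESeq2 and with no count filter, 64 in the groups alone and 18 to 27 with a library left out. For the genotype effect in Tfh_5 minus that in Tfh_1, 7 passed, against 58 in DESeq2, 45 with no count filter, 3 in the groups alone, 16 with a replicate block and 5 to 21 with a library left out. DESeq2 split its calls into 139 higher and 142 lower for the genotype effect in Tfh_1, against 60 and 40, into 324 and 307 for Tfh_1 against Tfh_A with the Cre-positive label, against 185 and 117, into 156 and 281 for Tfh_5 against Tfh_1 with the Cre-positive label, against 51 and 155, and into 16 and 42 for the genotype effect in Tfh_5 minus that in Tfh_1, against 0 and 7.

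Members called moved as follows. In a fit of only the groups compared, 2 members were called, against 4, for the genotype effect in Tfh_5, 0 against 1 in Tfh_1, 1 against 3 for Tfh_5 against Tfh_1 with the Cre-positive label, 2 against 4 for Tfh_5 against Tfh_A with the Cre-negative label and 0 against 3 for Tfh_5 against Tfh_1 with the Cre-negative label. DESeq2 called 2 members for the genotype effect in Tfh_1, 2 for Tfh_1 against Tfh_A with the Cre-positive label and 1 for the genotype effect in Tfh_1 minus that in Tfh_A. With no count filter these counts were 3, 1 and 1, and 4 for Tfh_1 against Tfh_A with the Cre-negative label. The groups alone gave 1 for the genotype effect in Tfh_1 minus that in Tfh_A. With a library left out, members called ran from 4 to 4, 0 to 1 and 0 to 0 for the genotype effects in Tfh_5, Tfh_1 and Tfh_A, from 2 to 2, 0 to 0 and 1 to 3 for the treatment comparisons with the Cre-positive label, from 2 to 4, 1 to 3 and 1 to 2 for those with the Cre-negative label, and from 3 to 3, 0 to 1 and 0 to 0 for the differences between genotype effects.

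Of the members' effects under the alternatives, 540 kept their direction and their side of the threshold, 45 lost and 22 gained a call, and 4 changed sign, none of them past the threshold. For Sox4, genotype effect in Tfh_A became 0.18 without Cre-positive replicate 1 (range -0.54 to 0.18 with a library left out), and for Tox, genotype effect in Tfh_A again, -0.60 without Cre-positive replicate 1 (range -0.60 to 0.33), -0.00469 without Cre-negative replicate 2 and -0.29 in voom with replicate block. The causes were not tested. Replicate numbers repeat across treatments, but correlations of same-numbered libraries were -0.037 to 0.066, so they were not treated as pairs. With the replicate block in edgeR, Sox4 and Satb1 lost their calls for Tfh_5 against Tfh_1 (adjusted p = 0.168 with the Cre-negative label and 0.0522 with the Cre-positive label). In voom with replicate block, Id3 lost its call for the genotype effect in Tfh_5 (adjusted p = 0.261). The block correlation fitted there was -0.0106, and that setting also replaces edgeR's test by limma's.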
